A study of Mus musculus with 49 samples.

Results

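The 8 genes described here encode or serve class I molecules of the major histocompatibility complex (MHC): B2m, H2-K1, H2-D1, H2-Q4, H2-T24, H2-T23, H2-T22 and H2-M3. They were chosen by name with the authors' deposited tables of 4 comparisons between knockouts and controls in view, and were found by symbol among the 38355 genes of the count table. Their differences in those 4 comparisons are therefore given as descriptions, without p-values, and nothing is read from how many were called there. All 8 passed the filter on low counts at both ages.

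Hippocampal polyadenylated RNA of mice lacking endophilin A proteins, which bend membranes during endocytosis, was sequenced in 49 libraries. At postnatal day 13 to 21 there were 7 double knockouts of endophilin A1 and A2 (DKO), 7 littermate controls (KOWT) and 10 wild types (WT-DKO). At postnatal day 0 there were 9 triple knockouts of endophilin A1, A2 and A3 (TKO), 8 littermate controls (KOWTKO) and 8 wild types (WT-TKO). The growth label calls every mouse a newborn, against the age label of the older groups, and the age label was used. No library was treated. The labels give no strain, no litter and no allele beyond these names. Separate animals are not stated for the libraries of a group, and the spread that p-values rest on may therefore be technical.

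Levels are given in CPM, reads of a gene per mega-read of the library after TMM scaling. The targeted genes were checked first. Sh3gl1, which encodes endophilin A2, measured 0.791 ± 0.287 CPM (SD, n = 7) in DKO and 0.831 ± 0.290 (n = 9) in TKO, against group means of 58.2 to 67.3 CPM elsewhere. Sh3gl2 (endophilin A1) was low in the littermates too, at 39.6 ± 1.40 CPM in KOWT (n = 7) against 432 ± 24.5 in WT-DKO (n = 10), and at 18.0 ± 6.38 in KOWTKO (n = 8) against 194 ± 19.0 in WT-TKO (n = 8). Sh3gl3 (endophilin A3) was near 0 in both TKO and KOWTKO. DKO and TKO thus differ from their littermates in Sh3gl1, while the littermates already differ from the wild types in Sh3gl2 and, at day 0, Sh3gl3. DKO replicates 5 and 6 and KOWT replicates 4, 5 and 6 were low in Sh3gl3 (6.52 to 15.7 CPM, group medians 61.7 and 62.7), and KOWTKO replicate 3 had 33.7 CPM of Sh3gl1. Libraries held 13.1 to 57.0 M reads on genes, with a median of 22.5 M (M for mega-reads).

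Class I molecules show peptides made by the proteasome to cytotoxic T cells. A heavy chain, encoded by an H2 gene in the MHC on mouse chromosome 17, folds around the peptide together with the light chain beta-2-microglobulin, the product of B2m on chromosome 2. Peptides enter the endoplasmic reticulum through the Tap1 and Tap2 transporter. Interferons raise transcription of these genes, and in the developing brain neurons express class I molecules, which have been linked to synapse refinement, beside microglia and endothelial cells, where levels are commonly higher.

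B2m is the only member on another chromosome than the endophilin A2 gene. Sh3gl1 sits on chromosome 17, 18.7 Mb beyond the last member, H2-M3. The 7 H2 members lie within 3.28 Mb, from H2-K1 (mm10 chr17:33996017-34000347, minus strand) through H2-D1 (chr17:35262730-35267499, plus), H2-Q4 (chr17:35379617-35385290, plus), H2-T24 (chr17:36005695-36020560, minus), H2-T23 (chr17:36029773-36032855, minus) and H2-T22 (chr17:36037128-36042747, minus) to H2-M3 (chr17:37270220-37274484, plus). B2m lies at chr2:122147686-122153083 on the plus strand. A mouse that carries a modified Sh3gl1 also carries the chromosome around it, so for the H2 genes the Sh3gl1 genotype and the linked stretch of chromosome 17 cannot be told apart from these labels. For that reason B2m is set beside the H2 genes throughout.

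The proximal promoters of 4 members are shown, with letters of elements known from promoters of class I genes and B2m. Not every motif is in all 4. H2-K1 and H2-D1 varied together across libraries, and H2-T22 did not vary with them. H2-Q4, which also varied with H2-K1 and H2-D1, is not shown. Whether these letters bear on how the levels varied was not tested. Each stretch is the 200 bases before the RefSeq start site on GRCm38.p6, 5′ to 3′ on the gene's strand, with matches to 4 motifs in capitals. H2-K1 has 2 RefSeq start sites, of which the stretch of the second is shown, and the start site of H2-D1 used by RefSeq lies inside the gene interval given above. The motifs, searched on both strands, were the core of the interferon-stimulated response element (GAAANNGAA or GAANNGAAA and their reverse complements), the kappaB element of enhancer A (GGGGATTCC), the core of the cAMP response element (TGACG) and the CCAAT box (CCAAT). The second spelling of the interferon element was added after the windows had been read.
B2m (chr2:122147487-122147686, plus): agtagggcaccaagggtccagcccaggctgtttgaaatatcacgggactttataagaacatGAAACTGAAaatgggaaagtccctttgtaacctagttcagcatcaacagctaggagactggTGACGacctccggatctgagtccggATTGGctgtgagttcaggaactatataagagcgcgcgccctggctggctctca
H2-K1 (chr17:34000334-34000533, minus): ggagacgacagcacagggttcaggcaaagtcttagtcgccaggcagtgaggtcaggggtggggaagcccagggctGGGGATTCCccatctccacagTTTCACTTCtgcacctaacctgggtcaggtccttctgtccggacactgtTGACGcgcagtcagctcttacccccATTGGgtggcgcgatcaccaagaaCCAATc
H2-D1 (chr17:35262894-35263093, plus): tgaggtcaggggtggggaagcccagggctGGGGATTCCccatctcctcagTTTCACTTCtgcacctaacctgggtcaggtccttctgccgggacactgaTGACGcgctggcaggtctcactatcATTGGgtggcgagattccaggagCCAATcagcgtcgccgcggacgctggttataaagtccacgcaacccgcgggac
H2-T22 (chr17:36042743-36042942, minus): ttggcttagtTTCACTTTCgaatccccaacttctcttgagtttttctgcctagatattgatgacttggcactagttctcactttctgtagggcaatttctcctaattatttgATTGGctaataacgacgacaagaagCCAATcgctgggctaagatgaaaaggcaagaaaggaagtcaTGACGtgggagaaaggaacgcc
Windows from 250 bases before to 50 after the start were on hand for 7 members, and no window was used for H2-T24. The first spelling of the interferon element matched in 3 of the 7 (B2m, H2-T23 and H2-T22), beside 8.56% of 32851 windows of all genes. With the added spelling, the only one that H2-K1, H2-D1, H2-Q4 and H2-M3 hold, it matched in 7, beside 14.8%, and since that spelling was added with these windows in view, nothing follows from the 7. The CCAAT box matched in 7 of 7, beside 37.4%, and the cAMP response element core in 6 of 7 (not H2-T23), beside 20.8%. The kappaB letters, searched in that spelling alone, matched in 2 of 7, H2-K1 and H2-D1, beside 0.25%. H2-Q4 holds GGGGATTTCC, which that spelling misses, so the 2 do not show which members carry a kappaB element. From that kappaB match to the next ATTGG, H2-K1 and H2-D1 had the same letter at 89 of 100 positions. A match describes letters and does not show a bound factor.

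Class I genes resemble each other and vary between mouse strains, so reads can be shared or lost between near-identical copies, and every H2 level below is uncertain to that extent. The kit does not mark strand: H2-Q4 shares 496 exon bases with Gm11131 on the other strand and H2-T22 shares 1003 with A930015D03Rik. Reads in these shared bases cannot be told apart. Whether they were counted or set aside as ambiguous is not known, since the read counter is not given.

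3 wild-type libraries stood apart in these genes. WT-DKO replicate 7 held 49.4 CPM of H2-K1, 60.5 of H2-D1 and 7.87 of H2-Q4, where the highest of the other 9 were 21.3, 29.5 and 2.26. It also held 5.81 CPM of H2-Q6, 2.69 of H2-Q7 and 8.31 of Tap1. WT-TKO replicates 5 and 6 held 15.1 and 14.1 CPM of H2-K1 against at most 9.09 in the other 6, and 46.3 and 29.9 of H2-D1 against at most 26.2. The same 2 libraries were the lowest of their group in B2m (16.4 and 17.1 CPM), H2-T22 (1.96 and 3.11) and H2-T23 (0.744 and 1.93). Results that rest on these libraries are given with and without them, a setting chosen after seeing the data.

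Levels per length of exon put B2m far above its partners. In WT-DKO the mean was 85.2 CPM per kb for B2m, 11.6 for H2-D1, 6.95 for H2-K1, 3.06 for H2-T24, 2.07 for H2-T22, 1.73 for H2-T23, 1.31 for H2-M3 and 0.863 for H2-Q4. In WT-TKO it was 29.5 for B2m, 9.46 for H2-D1, 3.01 for H2-K1, 1.20 for H2-T22, 0.919 for H2-T23, 0.890 for H2-T24, 0.665 for H2-Q4 and 0.451 for H2-M3. The classical heavy chains H2-K1 and H2-D1 thus led the H2 members at both ages on this scale. B2m, H2-D1 and H2-K1 rested on at least 62 reads in every library, while H2-M3 went down to 4 reads and H2-T24 to 5.

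B2m, the light chain that every class I heavy chain needs, was highest in wild types at each age. At day 13 to 21 it ran from 58.6 to 111 CPM in WT-DKO (median 69.0), from 39.9 to 61.0 in KOWT (median 52.4) and from 38.9 to 52.4 in DKO (median 46.2). At day 0 it ran from 16.4 to 36.0 CPM in WT-TKO (median 24.9), from 11.3 to 17.8 in KOWTKO (median 14.0) and from 11 to 16.3 in TKO (median 13.5). Every DKO library was below every WT-DKO library and every TKO library below every WT-TKO library, while knockouts and littermates overlapped. Here and below, the share of all genes that separate groups in this way is not given, so a separation describes the gene alone. In the order of group means, WT-DKO, KOWT, DKO, WT-TKO, KOWTKO, TKO, neighbours overlapped except DKO and WT-TKO.

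H2-K1 and H2-D1 encode the classical heavy chains that present peptide to CD8 T cells. H2-K1 ran from 14.5 to 49.4 CPM in WT-DKO (median 16.6), from 9.96 to 16.3 in KOWT (median 12.8) and from 14.3 to 22.2 in DKO (median 16.0). It ran from 5.55 to 15.1 in WT-TKO (median 7.56), from 3.20 to 8.46 in KOWTKO (median 4.62) and from 3.61 to 7.02 in TKO (median 4.43). Unlike B2m, H2-K1 in DKO lay among the wild-type values and the littermates lay lower, with 3 of 7 DKO libraries above every KOWT library. H2-D1 ran from 22.7 to 60.5 CPM in WT-DKO (median 27.1), from 17.3 to 25.1 in KOWT (median 21.7) and from 22.3 to 32.1 in DKO (median 27.1). At day 0 it ran from 15.2 to 46.3 in WT-TKO (median 21.3), from 13.1 to 22.1 in KOWTKO (median 15.8) and from 15.6 to 20.9 in TKO (median 17.5). For both genes, every pair of neighbours in the order of the 6 group means overlapped. H2-Q4, a non-classical heavy chain of the Q region, followed the same shape at day 13 to 21 with few reads, from 1.20 to 7.87 CPM in WT-DKO (median 1.57), 0.611 to 1.27 in KOWT (median 0.864) and 1.06 to 2.00 in DKO (median 1.39). At day 0 it ran from 0.934 to 2.48 in WT-TKO, 0.750 to 2.12 in KOWTKO and 0.703 to 1.63 in TKO.

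**Figure D1:**
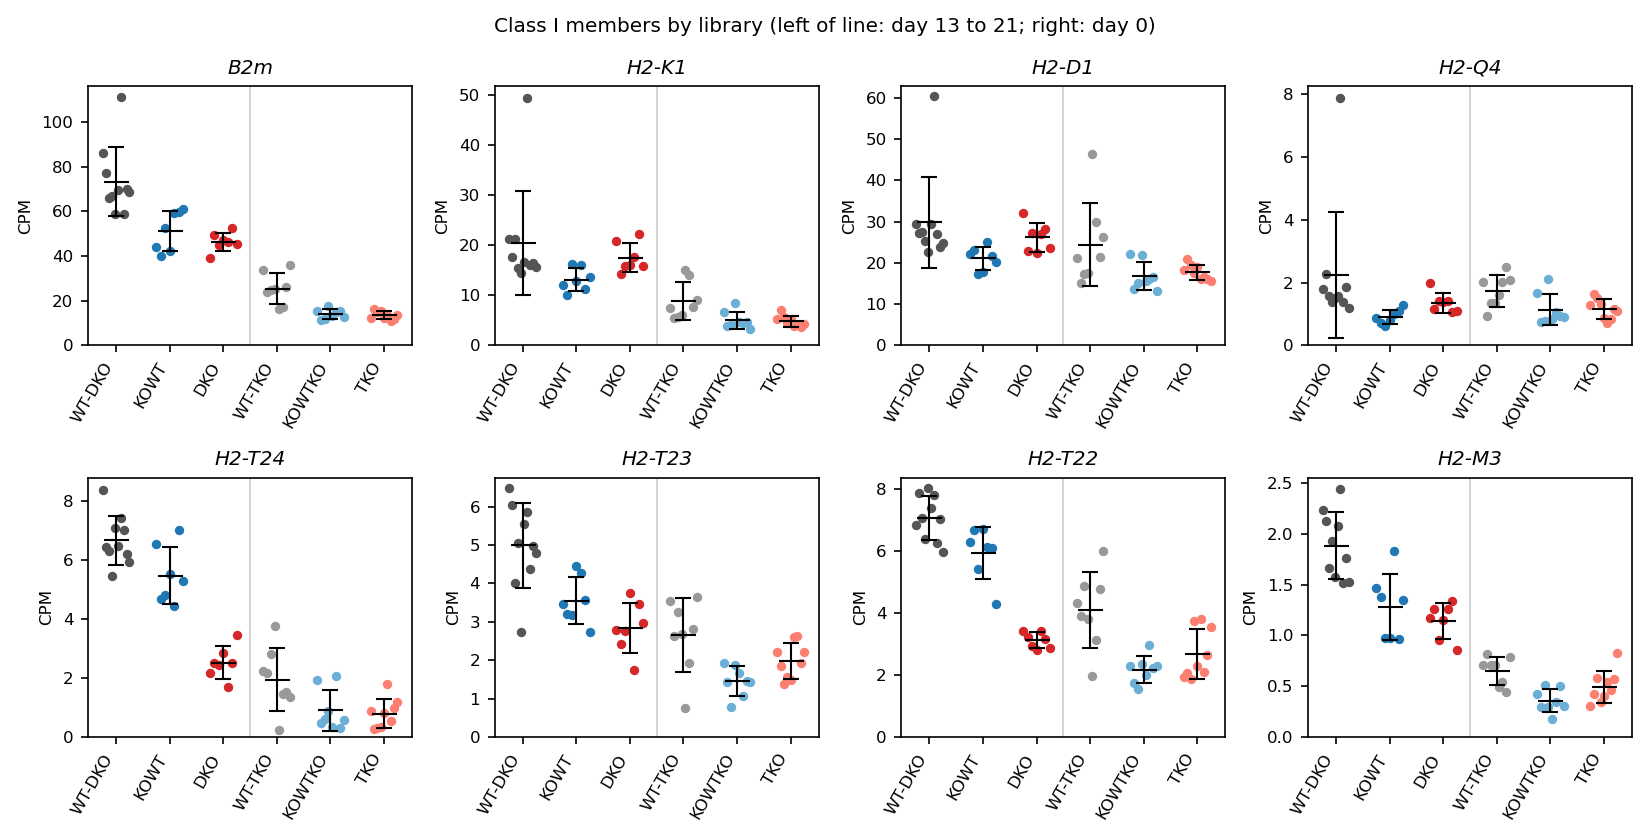
Each panel plots 1 member in CPM (linear axis from 0) by group; points are libraries, the long dash is the group mean and the bar is ± 1 SD. H2-T22 and H2-T24 in DKO sit below every KOWT and WT-DKO point, and WT-DKO replicate 7 is the single high point of H2-K1 (49.4 CPM), H2-D1 (60.5) and H2-Q4 (7.87).

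H2-T22 and H2-T24 stood out from the other heavy chains in DKO. H2-T22 encodes a non-classical class I molecule bound by some gamma delta T cells, and neither it nor its neighbour H2-T24 is one of the classical peptide presenters. H2-T22 ran from 2.81 to 3.42 CPM in DKO (median 3.15), from 4.29 to 6.69 in KOWT (median 6.11) and from 5.95 to 8.04 in WT-DKO (median 7.05). H2-T24 ran from 1.68 to 3.47 CPM in DKO (median 2.5), from 4.43 to 7.03 in KOWT (median 5.29) and from 5.47 to 8.39 in WT-DKO (median 6.46). For both genes all 7 DKO libraries lay below all 17 others of their age. How many of all tested genes do so is not given here. The triple knockouts, which lack Sh3gl1 as well, did not separate in this way: H2-T22 ran from 1.87 to 3.79 CPM in TKO, from 1.54 to 2.95 in KOWTKO and from 1.96 to 6.01 in WT-TKO, and H2-T24 from 0.272 to 1.78, 0.316 to 2.07 and 0.248 to 3.76. Within KOWTKO, replicates 1 and 6 held 1.93 and 2.07 CPM of H2-T24 while the other 6 held 0.316 to 0.891, and TKO replicate 6 held 1.78. In the order of group means, neighbours overlapped for H2-T22, H2-T24 and H2-Q4 except KOWT and DKO for H2-T24.

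H2-T23 encodes the heavy chain of Qa-1, which presents leader peptides of other class I chains to CD94/NKG2 receptors. It ran from 2.73 to 6.47 CPM in WT-DKO (median 5.01), from 2.74 to 4.44 in KOWT (median 3.46) and from 1.75 to 3.75 in DKO (median 2.78). At day 0 it ran from 0.744 to 3.65 in WT-TKO (median 2.75), from 0.771 to 1.93 in KOWTKO (median 1.45) and from 1.38 to 2.63 in TKO (median 1.93). H2-M3, which presents peptides with a formylated first residue, ran from 1.51 to 2.44 CPM in WT-DKO (median 1.85), 0.961 to 1.83 in KOWT (median 1.35) and 0.854 to 1.34 in DKO (median 1.17). At day 0 it ran from 0.438 to 0.817 CPM in WT-TKO (median 0.705), 0.175 to 0.514 in KOWTKO (median 0.326) and 0.302 to 0.821 in TKO (median 0.459). All 7 DKO libraries lay below all WT-DKO libraries for H2-M3. In the order of group means, neighbours overlapped for these 2 genes except DKO and WT-TKO for H2-M3.

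**Figure D2:**
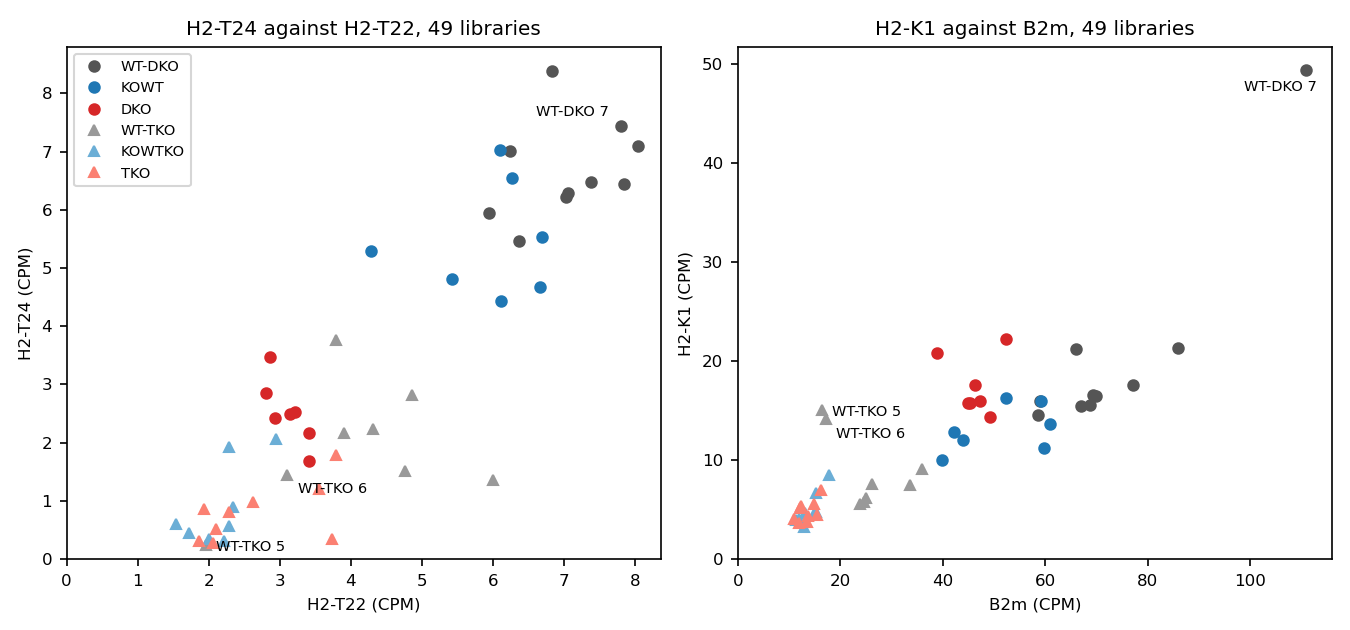
Left, H2-T24 against H2-T22 and right, H2-K1 against B2m, both in CPM, with 1 point per library in 49 libraries; circles are day 13 to 21, triangles day 0, and 3 wild-type libraries are named. DKO forms its own cloud on the left (H2-T22 2.81 to 3.42 CPM, H2-T24 1.68 to 3.47), while on the right WT-TKO replicates 5 and 6 lie high in H2-K1 at low B2m.

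In DKO versus KOWT, which sets loss of Sh3gl1 against its presence where Sh3gl2 is low in both, the members split. The log2 fold change (± SE, edgeR fit of the 24 libraries of the age) was -1.12 ± 0.13 for H2-T24 and -0.93 ± 0.10 for H2-T22. B2m, on another chromosome, stood at -0.14 ± 0.13, H2-M3 at -0.14 ± 0.17 and H2-T23 at -0.30 ± 0.17. H2-K1 (0.43 ± 0.22), H2-D1 (0.32 ± 0.16) and H2-Q4 (0.58 ± 0.36) pointed up. Of the 8 members, 2 were called lower at an adjusted p under 0.05 and 0 higher, where 10.6% of 16114 tested genes were called lower and 10.2% higher. The members were chosen on this contrast, so nothing follows from that count. The authors' deposited table listed the same 2 as lower, at -1.19 for H2-T24 and -1.01 for H2-T22, and 3 as higher, H2-K1 at 0.53, H2-D1 at 0.41 and H2-Q4 at 0.76. The edgeR fit also called H2-K1, H2-D1 and H2-Q4 higher once WT-DKO replicate 7 was left out, and H2-K1 and H2-D1 higher when only DKO and KOWT were fitted. The authors' listing and these calls are of the same contrast and libraries, so nothing follows from them either.

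In DKO versus WT-DKO, H2-T24 stood at -1.39 ± 0.13, H2-T22 at -1.17 ± 0.09, H2-T23 at -0.79 ± 0.15, H2-M3 at -0.70 ± 0.15 and B2m at -0.66 ± 0.12. These 5 were called lower and 0 members higher, beside 13% of genes called lower and 13.1% higher, again in a contrast on which the members were chosen. H2-Q4 stood at -0.66 ± 0.31, H2-K1 at -0.21 ± 0.20 and H2-D1 at -0.17 ± 0.15. Without WT-DKO replicate 7 the values were -0.20 for H2-Q4, 0.04 for H2-K1 and 0.00 for H2-D1. The classical heavy chains of DKO thus overlapped the wild types, from which B2m was separate.

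In TKO versus KOWTKO no member was called in either direction, beside 2.41% of 15715 genes called higher and 2.68% lower. H2-T24 stood at -0.22 ± 0.45, H2-T22 at 0.29 ± 0.19, H2-T23 at 0.44 ± 0.23, H2-M3 at 0.51 ± 0.22, H2-D1 at 0.08 ± 0.16, H2-Q4 at 0.03 ± 0.22, B2m at -0.06 ± 0.13 and H2-K1 at -0.07 ± 0.21. DESeq2 also called 0, and 1 member had an unadjusted p under 0.05 in the edgeR fit. In TKO versus WT-TKO, 5 members were called lower and 0 higher, beside 12% of genes called lower and 10.8% higher: H2-T24 (-1.28 ± 0.43), B2m (-0.91 ± 0.13), H2-K1 (-0.89 ± 0.21), H2-T22 (-0.61 ± 0.19) and H2-D1 (-0.47 ± 0.16). H2-Q4 (-0.56 ± 0.22), H2-T23 (-0.40 ± 0.22) and H2-M3 (-0.33 ± 0.21) were not. The members were chosen on both of these day 0 contrasts too, so the counts describe the choice. Without WT-TKO replicates 5 and 6 and WT-DKO replicate 7, B2m stood at -1.06, H2-K1 at -0.52, H2-D1 at -0.16 and H2-T23 at -0.64. These comparisons share their wild-type or littermate libraries with those that follow, so values in them are not independent of each other.

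The comparison of littermates with wild types was not among the authors' tables. It is, however, the difference of 2 comparisons that were (knockouts against wild types and knockouts against littermates), in the same libraries. The p-values and counts that follow come from the fit across all genes, but they are not independent of how the members were chosen. At day 13 to 21, KOWT and WT-DKO both carry Sh3gl1 and differ in Sh3gl2. B2m was lower in KOWT by 0.51 ± 0.12 on the log2 scale (edgeR adjusted p = 0.00995), from 73.3 ± 15.6 CPM (SD, n = 10) to 51.2 ± 9.12 (n = 7), with 4 of 7 KOWT libraries below every wild type. H2-M3 (-0.57 ± 0.15, edgeR adjusted p = 0.0265) and H2-Q4 (-1.24 ± 0.33, edgeR adjusted p = 0.0286) were also lower, each with 6 of 7 KOWT libraries below every wild type. In all, 3 of 8 members fell and 0 rose, beside 2.09% of genes that fell and 2.33% that rose. The median over the 8 was -0.50, beside 0.00 over all 16114 genes.

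The other 5 members pointed the same way without passing the threshold: H2-K1 at -0.63 ± 0.20 (edgeR adjusted p = 0.0804), H2-D1 at -0.49 ± 0.15 (adjusted p = 0.0622), H2-T23 at -0.49 ± 0.15 (adjusted p = 0.0664), H2-T22 at -0.24 ± 0.09 (adjusted p = 0.128) and H2-T24 at -0.27 ± 0.12 (adjusted p = 0.230). Without WT-DKO replicate 7, H2-K1 fell by 0.39 (edgeR adjusted p = 0.0455) and H2-D1 fell by 0.32 (adjusted p = 0.0243). The call of B2m held in each of the 24 alternatives run (highest adjusted p = 0.0364). With only KOWT and WT-DKO fitted, H2-Q4 lost its call (adjusted p = 0.0585) and H2-T23 gained one (adjusted p = 0.0499). The call of H2-Q4 was also lost without KOWT replicate 1, 2, 3 or 4, and that of H2-M3 without KOWT replicate 3, 4 or 6 or WT-DKO replicate 1. Without the KOWT and DKO libraries low in Sh3gl3, left out together, both calls were lost, at adjusted p = 0.145 for H2-Q4 and 0.107 for H2-M3.

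At day 0 the littermates, which are low in Sh3gl2 and Sh3gl3, were lower than wild types in 6 of 8 members and higher in 0, beside 10.5% of 15715 genes that fell and 10.5% that rose. B2m fell by 0.85 ± 0.13 (edgeR adjusted p = 0.000169), from 25.4 ± 6.90 CPM (SD, n = 8) to 14.1 ± 2.11 (n = 8), with 7 of 8 KOWTKO libraries below every wild type. Among the heavy chains H2-T22 fell by 0.90 ± 0.19 (adjusted p = 0.00262), H2-M3 by 0.84 ± 0.22 (adjusted p = 0.00936), H2-T23 by 0.84 ± 0.23 (adjusted p = 0.0126), H2-K1 by 0.82 ± 0.21 (adjusted p = 0.00934) and H2-D1 by 0.55 ± 0.17 (adjusted p = 0.0222), all from the edgeR fit. H2-T24 (-1.06 ± 0.44, adjusted p = 0.0831) and H2-Q4 (-0.59 ± 0.23, adjusted p = 0.0608) did not pass. The median over the 8 was -0.84, beside -0.01 over all genes.

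Without WT-TKO replicates 5 and 6, H2-K1 stood at -0.45 (edgeR adjusted p = 0.0935) and H2-D1 at -0.24 (adjusted p = 0.183), so the calls of the classical heavy chains rest on those 2 libraries, and H2-D1 lost its call without replicate 5 alone (-0.35, adjusted p = 0.0627) and with only KOWTKO and WT-TKO fitted (adjusted p = 0.0589). Without both replicates H2-T24 was called (-1.33, adjusted p = 0.0266). B2m, H2-T22, H2-T23 and H2-M3 kept their calls in all 23 alternatives. Since the labels tie no litter or strain to the wild types, endophilin genotype and breeding line cannot be told apart in either of these comparisons.

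Whether the littermates differed from wild type by the same amount at both ages was tested over all 49 libraries, with the same dependence on how the members were chosen. Of 8 members, 1 differed: H2-T22, by 0.65 ± 0.21 on the log2 scale (edgeR adjusted p = 0.0374), being nearer to wild type at day 13 to 21 (-0.24) than at day 0 (-0.90). No member differed the other way, beside 5.88% of 16805 genes called higher and 5.52% lower. The H2-T22 call ranged in adjusted p from 0.0045 to 0.172 over 40 alternatives and was lost in 11 of the 33 fits that leave out 1 library. B2m, at 0.33 ± 0.18 (adjusted p = 0.229), did not pass. Without the 3 wild-type libraries it did (0.57, adjusted p = 0.0111).

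**Figure D3:**
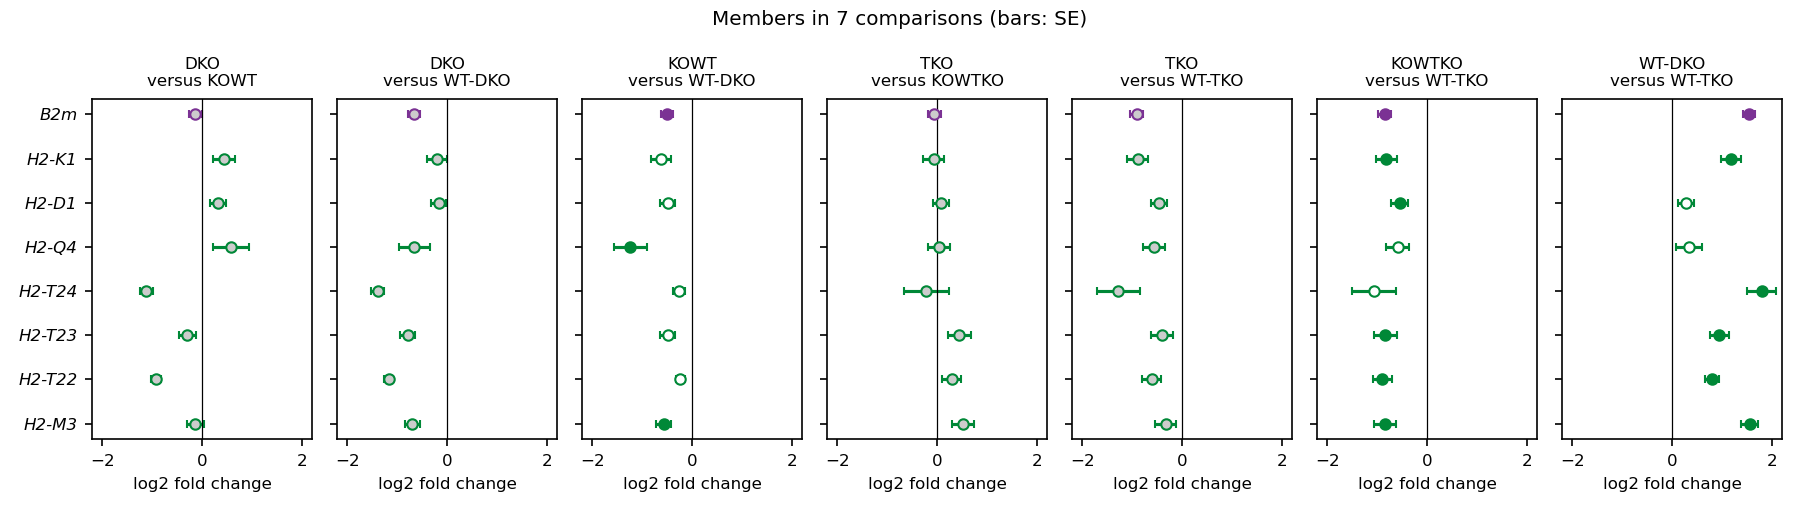
Log2 fold change (x axis) of each member in 7 comparisons, with bars of ± 1 SE; B2m is purple and the H2 genes green. Filled points passed an adjusted p of 0.05 and open points did not. Grey-filled points belong to the 4 comparisons on which the members were chosen and are drawn without their calls. In DKO versus KOWT, H2-T24 (-1.12) and H2-T22 (-0.93) stand left of the rest, and against wild type both littermate panels lie left of 0.

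Most members were more abundant in the older wild types. In WT-DKO versus WT-TKO, 6 of 8 members rose and 0 fell, beside 39.5% of 16805 genes that rose and 41.5% that fell. H2-T24 rose by 1.79 ± 0.29 (edgeR adjusted p = 3.87e-07), H2-M3 by 1.55 ± 0.17 (adjusted p = 6.03e-12), B2m by 1.54 ± 0.12 (adjusted p = 3.51e-16), H2-K1 by 1.18 ± 0.20 (adjusted p = 1.08e-06), H2-T23 by 0.94 ± 0.19 (adjusted p = 1.12e-05) and H2-T22 by 0.80 ± 0.14 (adjusted p = 1.52e-06). For B2m, H2-T24 and H2-M3 all 10 older libraries lay above all 8 newborn ones, a separation whose share over all genes is not given. H2-D1 (0.28 ± 0.16, adjusted p = 0.0998) and H2-Q4 (0.34 ± 0.26, adjusted p = 0.225) did not pass. H2-D1 rose once WT-TKO replicate 5 was left out (0.48, adjusted p = 0.00201), and H2-Q4 stood at -0.11 without WT-DKO replicate 7. The 2 ages are also 2 separate sets of libraries, so age and set cannot be told apart.

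Few of the genes that load class I molecules passed in littermates against wild type. Of all genes tested, 2.09% fell and 2.33% rose in KOWT versus WT-DKO, and 10.5% fell and 10.5% rose in KOWTKO versus WT-TKO. These shares stand beside the counts of the lists below as well. Of 8 peptide-loading genes, 1 fell in KOWT versus WT-DKO, Tap2 (-0.35 ± 0.09, edgeR adjusted p = 0.0217), a transporter subunit, and 0 rose, while 6 had an unadjusted p under 0.05. The median of the list was -0.17, beside 0.00 over all genes. Tap1, the other subunit, stood at -0.60 ± 0.22 (adjusted p = 0.125). In KOWTKO versus WT-TKO, 1 of 8 rose, the chaperone Pdia3 (0.17 ± 0.06, adjusted p = 0.0372), and 0 fell. Calr, the calreticulin gene, whose product holds newly folded heavy chains, was lower in both knockouts against littermates, by 0.43 ± 0.10 in DKO (adjusted p = 0.00465) and by 0.41 ± 0.09 in TKO (adjusted p = 0.0140). A second loading gene fell in each, the chaperone Canx in DKO (-0.17 ± 0.06, adjusted p = 0.0435) and Pdia3 in TKO (-0.19 ± 0.06, adjusted p = 0.0413), so 2 of 8 fell and 0 rose in both. Of all genes, 10.6% fell in DKO versus KOWT and 2.68% in TKO versus KOWTKO.

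Of 5 immunoproteasome genes, whose subunits shift peptide cleavage towards class I binding, 2 fell in KOWT versus WT-DKO and 0 rose. They were Psmb9 (-0.84 ± 0.21, edgeR adjusted p = 0.0168) and Psmb8 (-0.60 ± 0.16, adjusted p = 0.0261), which lie beside the Tap genes in the MHC. In KOWTKO versus WT-TKO 0 of 5 passed the edgeR test (1 at an unadjusted p under 0.05), with Psmb8 at -0.65 ± 0.25 (adjusted p = 0.0678).  Of the 3 constitutive subunits that they replace, 0 passed in either comparison (1 and 0 at an unadjusted p under 0.05).

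Off chromosome 17, other heavy chains that pair with B2m were Mr1, Cd1d1, Hfe and Fcgrt. In KOWT versus WT-DKO 0 of these 4 passed in edgeR (1 at an unadjusted p under 0.05). In KOWTKO versus WT-TKO 1 fell, Fcgrt, the neonatal Fc receptor (-0.54 ± 0.13, edgeR adjusted p = 0.00446). In DKO versus KOWT 2 of the 4 rose, Mr1 and Cd1d1, and 0 fell, beside 10.2% of all genes that rose. The list's median there was 0.55, and 3 of the 4 had an unadjusted p under 0.05 in edgeR. Cd1d1, which presents lipids, was higher in DKO versus KOWT (0.58 ± 0.19, adjusted p = 0.0274) and in TKO versus KOWTKO (0.37 ± 0.09, adjusted p = 0.0216).

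Among 13 regulators of class I transcription, 1 fell in KOWT versus WT-DKO, the interferon-induced activator Irf1 (-0.31 ± 0.09, edgeR adjusted p = 0.0450), and Nlrc5, the class I transactivator, stood at -0.89 ± 0.27 (adjusted p = 0.0530). In KOWTKO versus WT-TKO 4 of 13 fell, beside 10.5% of all genes: Rfx5 (-0.31 ± 0.09, adjusted p = 0.0147), Nfya (-0.36 ± 0.10, adjusted p = 0.0169), Irf2 (-0.40 ± 0.12, adjusted p = 0.0240) and Nfkb1 (-0.25 ± 0.08, adjusted p = 0.0354). In DKO versus KOWT 4 of 13 fell and 2 rose, Irf1 among the latter, beside 10.6% of genes that fell and 10.2% that rose. In TKO versus KOWTKO 0 of 13 passed (2 at an unadjusted p under 0.05 in edgeR).

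Most of the interferon response list fell against wild type. In KOWT versus WT-DKO 13 of 20 fell and 0 rose, with a median of -0.79, among them the GTPase genes Gbp3 (-1.10 ± 0.21, edgeR adjusted p = 0.00189) and Irgm1 (-0.68 ± 0.13, adjusted p = 0.00277). In KOWTKO versus WT-TKO 11 of 17 tested fell and 0 rose, with a median of -0.76, led by Iigp1 (-1.46 ± 0.21, adjusted p = 7.96e-05) and Lgals3bp (-1.20 ± 0.22, adjusted p = 0.000892). In TKO versus KOWTKO 0 of 17 passed in edgeR (5 at an unadjusted p under 0.05, median -0.31), and in DKO versus KOWT 1 of 20 fell, Iigp1 (-0.94 ± 0.25, adjusted p = 0.00834). The list was drawn up knowing that interferon genes are lower in these libraries, and it is not independent evidence.

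**Figure D4:**
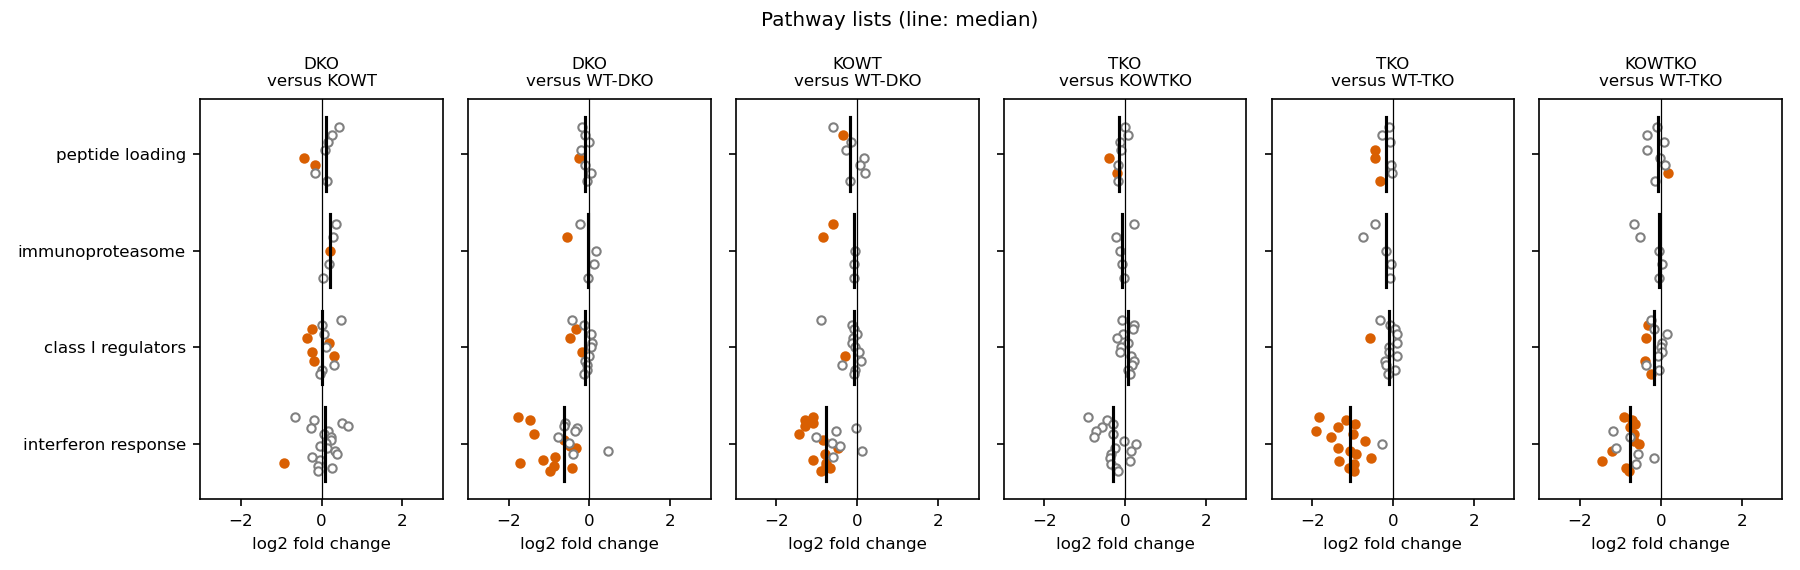
Log2 fold change (x axis) of every tested gene of 4 lists in 6 comparisons; orange points passed an adjusted p of 0.05, open points did not, and the black line is the list's median. The interferon response lies left of 0 against wild type at both ages (medians -0.79 in KOWT and -0.76 in KOWTKO) and near 0 in DKO versus KOWT.

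MHC class II genes were called in neither comparison of littermates with wild types. Of 10 in the list, 8 were tested at day 13 to 21 and 3 at day 0, and 0 passed in KOWT versus WT-DKO or KOWTKO versus WT-TKO (2 and 0 at an unadjusted p under 0.05), with Ciita, the class II transactivator, at 0.43 ± 0.18 (edgeR adjusted p = 0.198) and -0.18 ± 0.18 (adjusted p = 0.5). Ciita fell in DKO versus KOWT (-1.09 ± 0.20, adjusted p = 0.000547) and in DKO versus WT-DKO (-0.66 ± 0.19, adjusted p = 0.0128), where the class II chain gene H2-Ab1 rose (0.84 ± 0.27, adjusted p = 0.0233). With age, which cannot be told apart from the set of libraries, all 8 tested rose, beside 39.5% of all genes. Among them was Cd74, the invariant chain (2.83 ± 0.37, adjusted p = 1.36e-09). Of 8 genes for receptors of class I molecules, only Pirb had enough counts to test, and only in the fit of both ages. It rose with age (1.19 ± 0.40, adjusted p = 0.0068).

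Markers of other cell types also differed between groups. The summed CPM of 20 microglia markers ran from 616 to 695 in WT-DKO, 541 to 635 in KOWT and 498 to 661 in DKO, and from 175 to 289 in WT-TKO, 141 to 174 in KOWTKO and 152 to 197 in TKO. No KOWTKO library reached the lowest wild type. By gene, 15 of the 20 fell in KOWTKO versus WT-TKO and 3 in KOWT versus WT-DKO, and 0 rose in either. Of all genes, 10.5% fell in KOWTKO versus WT-TKO and 2.09% in KOWT versus WT-DKO. In whole tissue, fewer cells of a type and less RNA per cell cannot be told apart, and the part of microglia in the member differences was not tested. The sums of 20 endothelial markers overlapped, at 703 to 796, 698 to 838 and 617 to 790 in WT-DKO, KOWT and DKO, and at 336 to 513, 320 to 474 and 287 to 457 in WT-TKO, KOWTKO and TKO. In all of these lists but 1, every marker had reads in every group. The exception was the T and NK cell list of 9 genes, which summed to at most 2.12 CPM in any library, and that library was WT-DKO replicate 7. Ncr1, an NK cell receptor gene, was at 0 in 5 of the 6 groups.

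Choroid plexus entered some dissections. Its 14 markers reached a median sum of 1070 CPM in DKO against 37.0 in KOWT and 43.2 in WT-DKO, with ranges of 42.2 to 3830, 30.7 to 3650 and 27.1 to 6470. DKO replicates 3, 4 and 6 summed to 53.7, 47.1 and 42.2 CPM, and held 2.94, 2.81 and 3.15 CPM of H2-T22, where the other 4 held 2.86 to 3.42 and the lowest KOWT library 4.29. At day 0 the choroid sum ran from 44.7 to 1170 CPM in WT-TKO, 16.7 to 40.1 in KOWTKO and 22.8 to 176 in TKO, and 10 of 12 tested markers fell in KOWTKO versus WT-TKO. The 13 meningeal markers summed to 217 to 494 CPM in WT-DKO, 289 to 425 in KOWT and 376 to 765 in DKO, and to 120 to 517, 85.1 to 206 and 71.3 to 180 in WT-TKO, KOWTKO and TKO, with 5 of 13 lower in KOWTKO versus WT-TKO. In TKO versus WT-TKO 12 of 13 were lower and 0 higher. In DKO versus KOWT 6 of 13 were higher and 0 lower. The sum of 5 erythroid markers ran from 75.0 to 184 CPM in WT-DKO, 23.3 to 110 in KOWT and 9.97 to 76.1 in DKO, and from 47.9 to 83.8, 37.6 to 58.9 and 48.1 to 65.4 at day 0 in the same order. Of the 5, 3 fell in KOWT versus WT-DKO, 5 in DKO versus WT-DKO and 0 in DKO versus KOWT. The 10 hippocampal neuron markers marked every library, with sums of 8850 to 12600 CPM at day 13 to 21 and 2080 to 3130 at day 0. The part of these cells in the results was not tested.

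In DKO versus KOWT, neighbours of the H2 members were called about as often as genes elsewhere. Between H2-K1 and H2-M3, members left out, 99 genes were tested at day 13 to 21, and in DKO versus KOWT 10 were higher and 9 lower, 19.2% of them, beside 21.7% of 655 genes on the rest of chromosome 17 and 20.7% of 15352 genes elsewhere. The 5 of them with the largest differences, named after their values were seen, were higher in DKO: Ager by 1.37, C2 by 1.20, C4b by 0.98, Msh5 by 0.91 and BC051142 by 0.89 on the log2 scale. In KOWT versus WT-DKO the shares were 4.04%, 4.43% and 4.40%, and the 4 that passed in the stretch were Psmb9, Psmb8, Tap2 and Tcf19, all lower. In KOWTKO versus WT-TKO they were 17.9%, 20.9% and 20.9%, and in TKO versus KOWTKO 7.37%, 5.78% and 5.05%. These shares were not tested against each other, and the linked stretch and the Sh3gl1 genotype still cannot be told apart.

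Around H2-T24 and H2-T22 the nearest tested coding genes that are not H2 genes were not called lower in DKO versus KOWT. On 1 side Gnl1 stood at 0.08 ± 0.06 (edgeR adjusted p = 0.368), Prr3 at 0.16 ± 0.09 (adjusted p = 0.207) and Abcf1 at -0.17 ± 0.07 (adjusted p = 0.0727). On the other Rpp21 stood at 0.06 ± 0.09 (adjusted p = 0.711) and Trim39 at 0.06 ± 0.07 (adjusted p = 0.627), and Trim26 rose by 0.21 ± 0.05 (adjusted p = 0.00515). H2-T23, which lies between H2-T24 and H2-T22, stood at -0.30 ± 0.17.

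**Figure D5:**
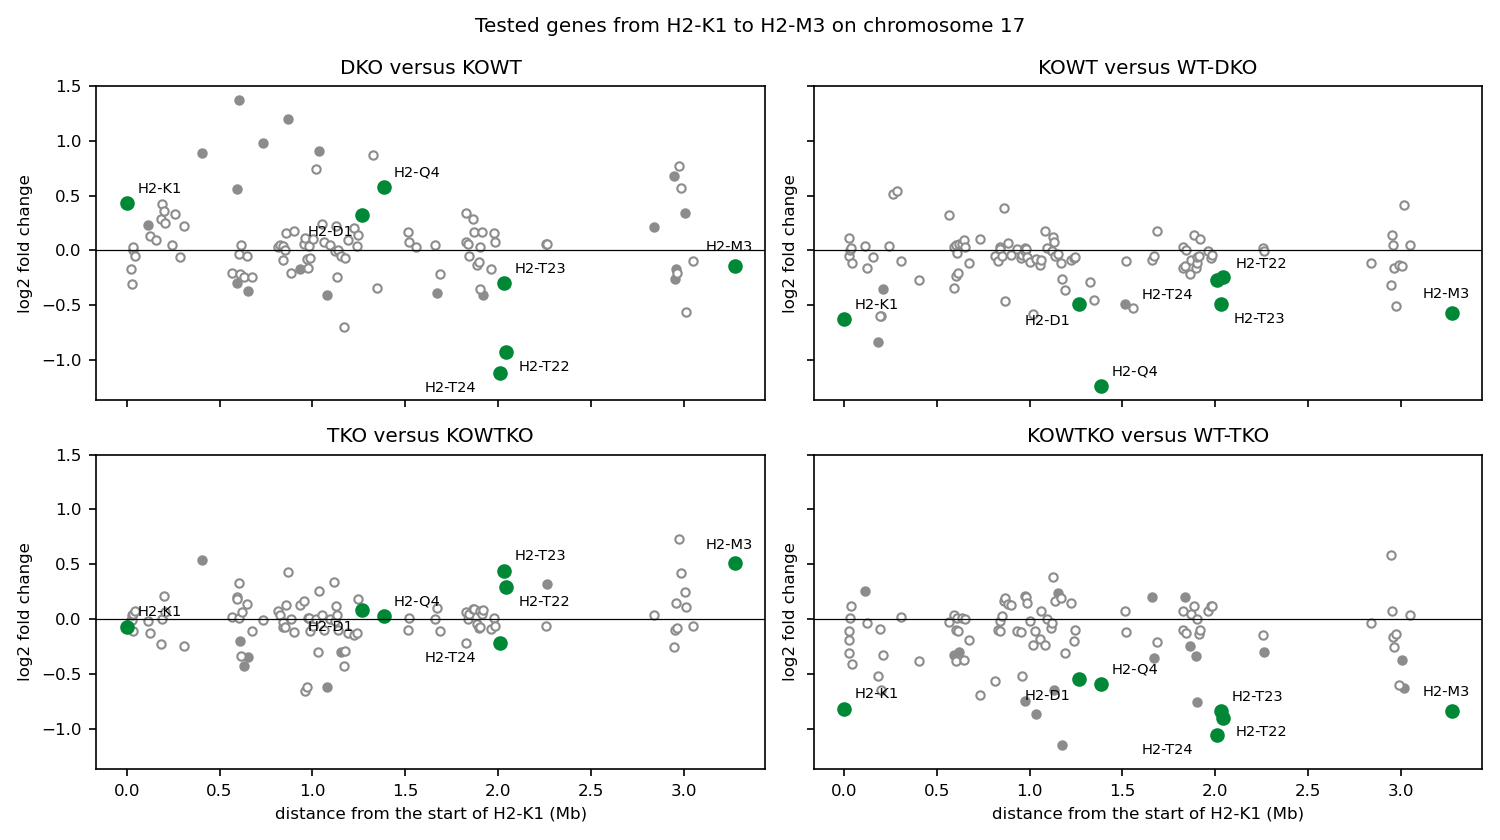
Log2 fold change (y axis) of every tested gene against its distance in Mb from the start of H2-K1, in 4 comparisons; grey points are other genes, filled where the adjusted p was under 0.05, and green points are the 7 H2 members. In DKO versus KOWT, H2-T22 (-0.93) and H2-T24 (-1.12) lie below genes on both sides, and in both littermate panels all 7 H2 members lie below 0.

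The other H2 class I genes were mostly silent. Of 25 in the count table besides the members, 4 were tested over all libraries, and 0 of the 4 tested at day 13 to 21 or the 2 tested at day 0 passed in any comparison within an age, with 0 or 1 at an unadjusted p under 0.05 in each. With age 3 of the 4 passed in edgeR: H2-Q2 (2.84 ± 0.51, adjusted p = 2.2e-06) and H2-Q1 (2.34 ± 0.58, adjusted p = 0.000382) rose, and H2-M5 fell by 1.37 ± 0.22 (adjusted p = 2.76e-07), against the direction of the members. Of all genes, 39.5% rose and 41.5% fell with age. Some single values, named after they were seen, are set beside the members. H2-Bl, under the filter, ran from 0.208 to 1.05 CPM in DKO (5 to 21 reads) and from 0 to 0.244 in KOWT (0 to 4 reads), the reverse of H2-T22 and H2-T24. It reached 1.55 CPM in TKO replicate 5 and 0.799 in WT-TKO replicate 5. H2-T10 reached 1.51 CPM (55 reads) in WT-TKO replicate 5, where H2-T22 and H2-T24 were lowest in their group, against a group median of 0.0884. In DKO, where H2-T22 and H2-T24 were low in every library, H2-T10 overlapped KOWT, at 0.0934 to 0.494 and 0.225 to 0.385 CPM. Whether reads moved between these genes was not tested.

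Within groups H2-K1, H2-D1 and H2-Q4 varied together. Over the 49 libraries, after subtracting each group's mean log2 CPM, Pearson's r was 0.87 between H2-K1 and H2-D1, 0.70 between H2-K1 and H2-Q4 and 0.69 between H2-D1 and H2-Q4. It was 0.50 between H2-T24 and H2-T23, 0.52 between H2-T24 and H2-T22 and 0.50 between H2-T23 and H2-T22. Across these it was -0.28 for H2-K1 with H2-T24 and -0.25 for H2-K1 with H2-T22. B2m lay closer to H2-Q4 (0.55), H2-T23 (0.49) and H2-T22 (0.41) than to H2-K1 (0.26) or H2-D1 (0.15). These values lean on the 3 wild-type libraries: over the other 46, r was 0.60 for B2m with H2-K1, 0.49 for B2m with H2-D1, 0.17 for B2m with H2-T22, 0.74 for H2-K1 with H2-D1 and 0.69 for H2-D1 with H2-Q4. Over the same 46 it was only 0.30 for H2-T24 with H2-T22, 0.21 for H2-T24 with H2-T23 and 0.19 for H2-T23 with H2-T22. The points share libraries, depth and dissection, and these values are descriptions.

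By the same measure the tested genes most like B2m, members left out, were Srgn (0.74), Trmt9b (0.71), Tpm2 (0.70), Bst2 (0.63) and Lgals9 (0.62). The nearest to H2-K1 were Prss41 (0.61), Tap1 (0.59), Rfc5 (0.57), Piezo1 (0.57) and Gm14292 (0.57), and to H2-D1 Rbp4 (0.61), Tmem214 (0.60), Dera (0.60), Pdgfrl (0.58) and Piezo1 (0.58). Over the 46 libraries Bst2, an interferon-induced antiviral membrane protein, came first for B2m (0.65), H2-K1 (0.72) and H2-D1 (0.68).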

How the data were processed

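Whole-tissue RNA of 49 hippocampus libraries in 6 groups was extracted with RNeasy Mini or NucleoSpin columns and made into libraries that do not mark strand, per the labels' protocols. The authors deposited raw read counts per gene, and 4 tables of comparisons with mean counts scaled by size factors (a signal), log2 fold changes and p-values. CASAVA 1.8.2, STAR 2.3.0e, DESeq2 and mm10 are named in the submitters' processing notes, while neither the read counter nor the annotation is given in the sources used here. Of 38355 genes, 36602 matched GENCODE M21 by Ensembl ID, which gave positions and exon lengths. The 5 lines naming no gene were left out of totals: reads outside genes made up 8.89 to 17.5% and ambiguous reads 1.57 to 1.92%, and 38.4 to 86.8 alignments per 100 gene reads were not unique.

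Counts were tested with edgeR 4.0.16 (R 4.3.3, robust quasi-likelihood fit, TMM scaling, filterByExpr, Benjamini-Hochberg adjustment over all genes tested, threshold 0.05), in 1 fit per age (24 and 25 libraries) and 1 of all 49 for age and for the difference between ages. The fit was tested on simulated data. CPM used TMM library sizes, and log2 CPM for likeness a prior count of 2. Alternatives were DESeq2 1.42.0, median-of-ratios scaling, no filter, a replicate block, fewer groups and left-out libraries. Within no pair of groups did every same-numbered pair of libraries correlate above 0.1, so the numbers were not taken to pair libraries. Between KOWT and DKO, 3 of 7 such pairs did, with r from -0.04 to 0.45. Whether some same-numbered libraries share a litter or handling was not tested, and the replicate block was run for that reason as an alternative only. Every pair of libraries within a group differed by more than sampling noise. The members and lists were chosen with earlier results of these data known. The text names all 8 members, from each list up to 3 genes with the smallest p in a comparison, the 5 genes most like B2m, H2-K1 and H2-D1, and the Sh3gl genes. Nfkb1, Tcf19, the neighbours of H2-T22 and H2-T24 and single H2 genes were named after their values were seen. The interferon signalling list is not reported here. Promoter sequences are RefSeq's on GRCm38.p6.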

Additional observations from a re-analysis of the deposited data

Results flagged for a closer look

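Each of the 48 sets of 1 member in 1 group was searched for a library far from the others, and 6 values stood out. Chance flags about 1 set in 20 where sets are independent. These sets share libraries, and H2-K1, H2-D1 and H2-Q4 vary together, so the 6 are no measure of an excess. WT-DKO replicate 7 accounted for 4 of them, with 111 CPM of B2m, 49.4 CPM of H2-K1, 60.5 CPM of H2-D1 and 7.87 CPM of H2-Q4. WT-TKO replicate 5 stood out with 46.3 CPM of H2-D1, and DKO replicate 1 with 2.00 CPM of H2-Q4. WT-DKO replicate 7 also had the highest sum of T and NK cell markers, 2.12 CPM, whose part in these values was not tested.

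The difference between ages in how far littermates lay from wild type was flagged for H2-T22, at 0.65 on the log2 scale, because the test of that difference passed (edgeR adjusted p = 0.0374).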

How the results depend on the processing

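Of 1623 values of single members under an alternative, 1553 kept their direction and their side of the threshold or moved by less than the spread. The count of members that fell in KOWT versus WT-DKO, 3, became 6 with DESeq2, 5 without the 3 wild-type libraries high in H2-K1 and H2-D1, and 1 to 5 when 1 library was left out (1 without KOWT replicate 3 or 4, 5 without WT-DKO replicate 5 or 7). In TKO versus WT-TKO the 5 became 3 without the filter on low counts and 3 to 6 when 1 library was left out (3 without TKO replicate 4). The 1 member that differed between ages became 0 without the filter, 0 with the replicate block and 0 without the libraries low in Sh3gl3 and KOWTKO replicate 3. It became 2 without the 3 wild-type libraries and 0 to 1 when 1 library was left out. The members called higher in DKO versus KOWT, 0, became 2 with only the groups compared and 3 without the 3 wild-type libraries. The members were chosen on that contrast, so nothing follows from these counts. The other counts of members given in the text stayed within 1.5 times.

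Direction turned for H2-Q4 with age, to -0.09 without the 3 wild-type libraries and -0.11 without WT-DKO replicate 7 (-0.11 to 0.43 when 1 library was left out), and for H2-D1 in the difference between ages, to -0.05 with the replicate block, -0.09 without the 3 wild-type libraries and -0.15 without WT-TKO replicate 5 (-0.15 to 0.22 when 1 library was left out). The replicate block also ended the calls of H2-D1 in KOWTKO versus WT-TKO (-0.50, edgeR adjusted p = 0.0502) and of H2-T22 between ages (0.58, adjusted p = 0.0876), and added H2-T24 in KOWTKO versus WT-TKO (adjusted p = 0.0476) and H2-D1 with age (adjusted p = 0.0458). The cause of these changes was not tested. H2-M3 and H2-T24 rested on as few as 4 and 5 reads in a day 0 library, which limits their precision.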
